A study of Mus musculus with 2 samples.

Results

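The genes described here are antiviral effectors that interferon switches on, measured in dermal cells cultured from newborn C57BL/6 mice. The members were a named list of 34 effector genes, chosen without the sensors, the STAT and IRF factors, the PARP family, the interferon-induced GTPase families of guanylate-binding and immunity-related proteins, and antigen presentation. A gene was compared where a probe set of the array carried its symbol alone, which held for 32 of the 34, out of 19938 genes in all. The probe set of Isg15, which encodes a ubiquitin-like protein, also carried the symbol of another gene and was left out, and Ifi44 was not analysed here.

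The dermal cells came from the back skin of pups on postnatal day 0. They were cultured for 24 h and then transfected for 48 h with 10 nM of either control siRNA (1 array) or siRNAs specific for β-catenin (1 array). An siRNA (small interfering RNA) guides the cell's own machinery to cut a transcript with its complementary sequence. Both groups share strain, age, culture and transfection, and untransfected cells were not analysed here. The labels do not say how many pups or cultures stood behind an array, nor how many β-catenin siRNA sequences were used. With a single control siRNA culture and a single β-catenin siRNA culture, loss of β-catenin, other effects of those siRNAs and differences between the cultures cannot be told apart.

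Interferons are secreted proteins that bind receptors on the same or neighbouring cells. The receptors activate JAK kinases, and the type I and type III receptors lead to a transcription factor complex that binds a DNA element called the interferon-stimulated response element (ISRE) before its target genes. The products of those genes degrade, edit or trap viral RNA, block entry or budding, tag proteins with ISG15, or limit the response itself. Fibroblasts, the main cells of the dermis, both make and answer type I interferon.

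All values are log2 values of robust multi-array average (RMA), 1 per probe set and array, and each difference is the β-catenin siRNA value minus the control siRNA value. Where a gene "read" a pair of values, the control comes first. There were no replicate arrays, so no difference has an error or a test, and genes were counted by fold alone. The median of all gene means, 5.13, served as a reference level under which a value was called dim. Medians of all probe sets were 4.68 and 4.71. Ctnnb1, which encodes β-catenin, read 10.48 in the control and 9.34 after β-catenin siRNA, 45.2% of the control signal. Actb, a cytoskeletal actin, read 13.15 and 13.06. The labels call the cells dermal, and all 10 fibroblast markers lay above the reference on both arrays, led by Col1a1, a collagen I chain, at 12.77 and 12.71.

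The effector genes were higher on the β-catenin siRNA array with 1 exception. Of the 32 genes, 31 were higher by any amount, against 41.6% of all genes. At least 2-fold higher were 12, against 0.607% of all genes, and at least 1.5-fold higher were 20, against 2.23%. None was 1.5-fold lower, against 2.35% of all genes. The median difference was 0.88, against -0.02 over all genes. Among the 20 genes of the whole array with the largest positive differences, 5 were members, and among the top 50 there were 10. Since the list was drawn up with earlier results of these arrays known, these counts describe the list and do not test it.

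Promoters of 9 genes show where the ISRE core lies, or does not lie, in genes that differed to unequal extents. RefSeq (GRCm38.p6) gave a promoter for 28 of the 34 genes. The letters GAAANNGAAA were searched on both strands in the 250 bases before each start site. Each line gives the 160 bases before the most upstream start site, read towards the gene, with matches in capitals, some of which appear as the reverse complement TTTCNNTTTC. Overlapping matches run together. The first 3 are IFIT genes, 2 that differed most and 1 that differed little. The others are the remaining compared genes with a match. Ifit2 is the only gene printed without a match, and it does not stand for the 18 compared genes that lacked one. A rise of 1.5-fold or more was seen in 11 of those 18, among them Oasl2 (1.79) and Lgals3bp (1.46), which are not printed.
Ifit1, chr19:34640729-34640888, + strand: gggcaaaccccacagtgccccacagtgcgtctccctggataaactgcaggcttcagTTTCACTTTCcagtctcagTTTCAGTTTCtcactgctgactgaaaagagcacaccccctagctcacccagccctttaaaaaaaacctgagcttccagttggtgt
Ifit3, chr19:34583369-34583528, + strand: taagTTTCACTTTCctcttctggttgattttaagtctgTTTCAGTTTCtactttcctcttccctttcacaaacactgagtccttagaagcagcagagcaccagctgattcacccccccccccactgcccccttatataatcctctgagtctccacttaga
Ifit2, chr19:34550534-34550693, + strand: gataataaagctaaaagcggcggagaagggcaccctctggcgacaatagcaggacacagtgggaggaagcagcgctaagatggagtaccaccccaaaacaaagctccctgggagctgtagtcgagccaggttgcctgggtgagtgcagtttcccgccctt
Trim30a, chr7:104465194-104465353, - strand: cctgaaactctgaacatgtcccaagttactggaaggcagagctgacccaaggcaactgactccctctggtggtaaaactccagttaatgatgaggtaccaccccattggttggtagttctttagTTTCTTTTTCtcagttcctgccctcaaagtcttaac
Bst2, chr8:71537473-71537632, - strand: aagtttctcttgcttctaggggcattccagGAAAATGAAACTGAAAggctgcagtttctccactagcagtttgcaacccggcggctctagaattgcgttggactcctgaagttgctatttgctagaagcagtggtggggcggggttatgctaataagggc
Ddx60, chr8:61927927-61928086, + strand: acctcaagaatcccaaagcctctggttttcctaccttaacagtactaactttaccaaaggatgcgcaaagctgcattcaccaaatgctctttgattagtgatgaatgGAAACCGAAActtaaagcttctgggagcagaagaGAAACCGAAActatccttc
Rsad2, chr12:26456453-26456612, - strand: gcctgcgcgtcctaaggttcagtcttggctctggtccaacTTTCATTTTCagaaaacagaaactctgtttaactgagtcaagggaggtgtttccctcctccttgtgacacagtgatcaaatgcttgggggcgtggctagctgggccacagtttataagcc
Oas1a, chr5:120907526-120907685, - strand: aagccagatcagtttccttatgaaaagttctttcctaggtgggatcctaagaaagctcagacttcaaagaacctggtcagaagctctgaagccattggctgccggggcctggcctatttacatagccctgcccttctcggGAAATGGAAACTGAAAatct
Oas3, chr5:120777660-120777819, - strand: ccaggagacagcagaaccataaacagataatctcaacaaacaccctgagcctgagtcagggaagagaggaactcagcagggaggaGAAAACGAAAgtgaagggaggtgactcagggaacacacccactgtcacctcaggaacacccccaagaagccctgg

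The IFIT genes encode antiviral proteins, of which Ifit1 binds viral RNA lacking the host's cap methylation and blocks its translation. Ifit1 read 3.92 in the control and 7.05 after β-catenin siRNA, 8.73-fold higher and the second largest positive difference of all genes. Ifit3, whose product stabilises the Ifit1 protein on RNA in human cells, read 4.50 and 7.16, 6.31-fold higher and at rank 7. Ifit2, which lies next to Ifit3 on chromosome 19, read 6.85 and 6.96, a difference of 0.11. This family held both the largest difference among the members and one of the smallest. The control values of Ifit1 and Ifit3 were dim and that of Ifit2 was not. With values under 5.13 raised to it, the differences of Ifit1 and Ifit3 were 1.91 and 2.03. Probes of such close relatives can share signal. Ifit3b, a near copy of Ifit3, read 2.83 and 4.56.

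The OAS family makes short adenylate chains that activate RNase L, an enzyme that degrades RNA. Oasl2 read 5.30 and 7.10, 3.47-fold higher. Its neighbour on chromosome 5, Oasl1, read 5.05 and 5.81, 1.69-fold higher. Oasl1 is known for restraining translation of Irf7, a transcription factor of the interferon response. The 3 classical synthetase genes differed by similar small amounts and were dim on both arrays. Oas1a read 3.65 and 4.22, Oas2 read 3.62 and 4.16, and Oas3 read 2.92 and 3.43. Their differences of 0.58, 0.54 and 0.52 lay just under 1.5-fold, and Oas1a passed it after median centring (0.60). Of the 5 family members, 2 were at least 1.5-fold higher.

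The Mx genes encode dynamin-like GTPases that trap incoming viral particles, and C57BL/6 mice, like most laboratory strains, carry a defective Mx1 allele. Whether the Mx2 transcript yields a working protein here was not measured. Mx1 read 2.35 and 2.45, and Mx2 read 1.71 and 3.32. Both genes were dim on both arrays. The difference of Mx2, 1.61, was among the 50 largest, but no value of either gene reached the reference, so that fold rests on signal near the bottom of the range.

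The ISG15 system was higher in all 3 genes compared. Usp18, which removes ISG15 from proteins and also dampens signalling from the type I receptor, read 5.05 and 7.21, 4.47-fold higher, at rank 14 of all genes. Herc6, the main mouse ligase for ISG15, read 5.20 and 6.19, 1.99-fold higher and so just short of the 2-fold size. Ube2l6, the conjugating enzyme that hands ISG15 to the ligase, read 5.88 and 6.77, 1.86-fold higher. Only the control value of Usp18 lay under the reference, by a small margin, and with that value raised to the reference its fold was 4.22.

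Enzymes of nucleotides and RNA were split. Rsad2 (viperin), which makes a chain-terminating nucleotide, read 4.07 and 4.94, 1.83-fold higher. Cmpk2, a mitochondrial nucleotide kinase gene that lies beside Rsad2 on chromosome 12, read 3.39 and 4.31, 1.88-fold higher. This neighbouring pair differed by nearly the same amount, 0.87 and 0.91, and was dim on both arrays. Adar, which edits adenosine to inosine in duplex RNA, read 6.93 and 7.32, 1.31-fold higher. Isg20, an exonuclease gene, read 6.35 and 6.33 and was the only member not higher. Its difference of -0.02 turned to 0.0040 after median centring, so its direction was not settled.

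Both membrane restriction genes were above the reference on both arrays. Bst2 (tetherin), which holds budding virions at the cell surface, read 6.66 and 8.20, 2.91-fold higher. Ifitm3, which blocks fusion of virions with endosomes, read 10.82 and 11.32, a difference of 0.51. No dim value enters either fold.

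Among ubiquitin ligases, all 4 were higher. Trim30a, of a mouse cluster related to the restriction factor Trim5, read 4.59 and 6.25, 3.17-fold higher. Dtx3l, the partner ligase of Parp9, read 5.92 and 6.85, 1.91-fold higher. Trim25, known as a ligase in the RIG-I pathway, read 6.93 and 7.57, 1.56-fold higher. Trim21, an antibody receptor of the cytosol, read 5.95 and 6.47, a difference of 0.52. Of this group, only Trim30a had a dim control value.

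The remaining 9 effectors spanned differences from 0.21 to 2.22, and 5 were at least 2-fold higher. Rtp4, named as a receptor transporter and also known to restrict flaviviruses, read 4.75 and 6.97, 4.66-fold higher. Lgals3bp, a secreted galectin-binding glycoprotein, read 8.02 and 9.48, 2.75-fold higher and far from the reference on both arrays. Ddx60, a helicase-like protein gene, read 2.98 and 4.38. These genes thus combined a bright pair of values (Lgals3bp), a dim control (Rtp4) and a pair that was dim on both arrays (Ddx60). Samd9l, which represses translation, read 4.57 and 5.89, 2.49-fold higher, or 1.69-fold with the reference as floor. Xaf1, a pro-apoptotic gene, read 3.87 and 5.16, and its 2.44-fold became 1.02-fold with the reference as floor. Sp100, a nuclear body protein gene, read 3.10 and 3.90, 1.74-fold higher, but was dim on both arrays. The smallest differences of this group were those of Epsti1 (0.40), Ifi35 (0.31) and Ifi27l2a (0.21). Ifi35 was above the reference on both arrays and the others were dim on both.

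**Figure D1:**
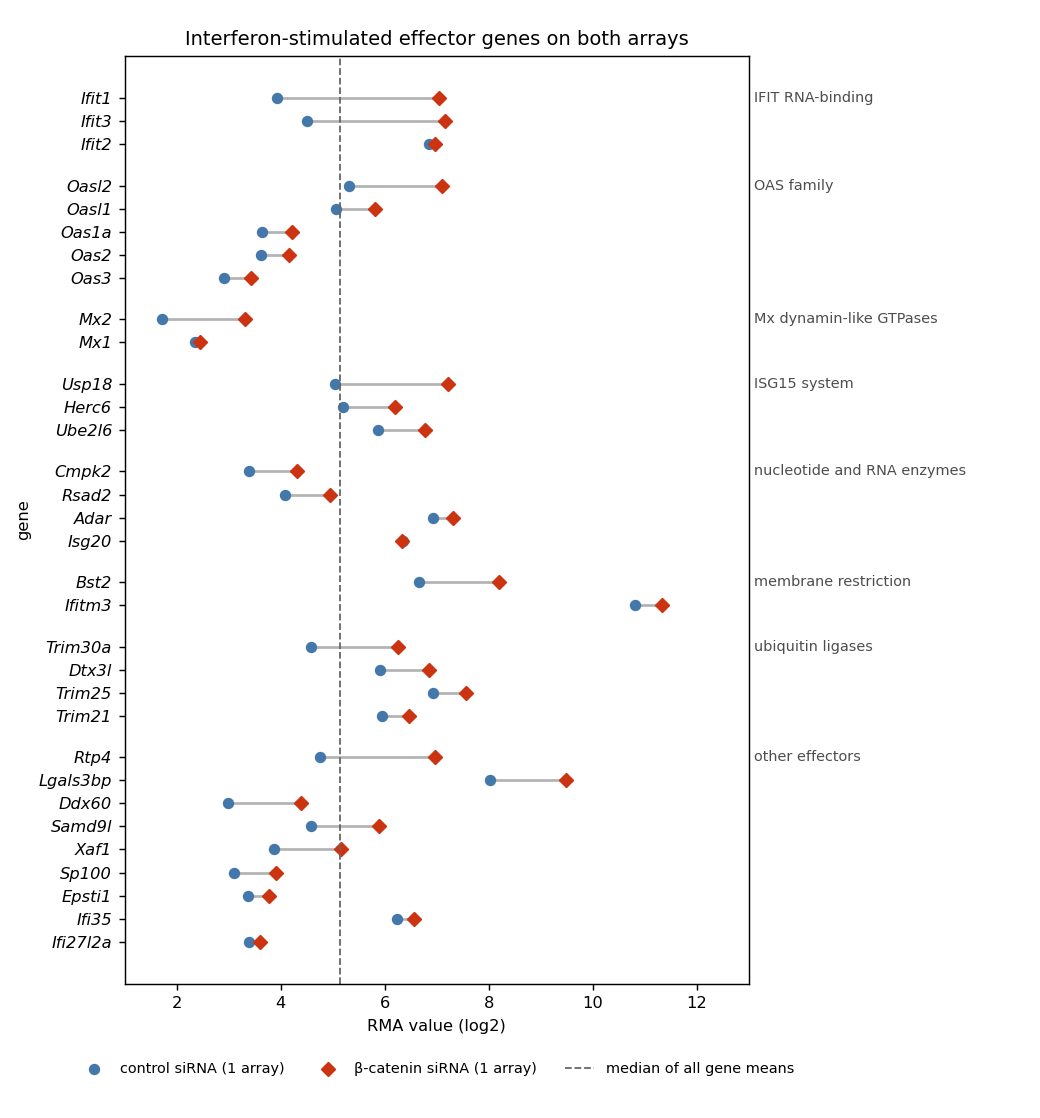
RMA values (log2, horizontal axis) of the 32 effector genes, grouped by role, on the control siRNA array (circles) and the β-catenin siRNA array (diamonds), 1 array each. The dashed line is the median of all gene means, 5.13. Diamonds lie to the right of circles except for Isg20, and 19 control values against 11 β-catenin siRNA values lie left of the line.

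Many of the folds rest on a dim control value. The effector genes ranged from 1.71 to 10.82 with a median of 4.67 in the control, and after β-catenin siRNA from 2.45 to 11.32 with a median of 6.29. Of the 32, 19 were dim on the control array and 11 of these were dim on both. All genes were split by the mean of both arrays into 3 equal bins (edges at 3.89 and 6.53). The bright bin held 6 members, of which 2 were at least 2-fold higher, against 0.647% of all genes there. The middle bin held 17, of which 8 were at least 2-fold higher, against 0.903%. The dim bin held 9, of which 2 were, against 0.271%. With every value under the reference raised to it, 8 members were at least 2-fold higher, against 0.351% of all genes. These 8 were Usp18, Ifit3, Ifit1, Rtp4, Oasl2, Bst2, Lgals3bp and Trim30a.

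**Figure D2:**
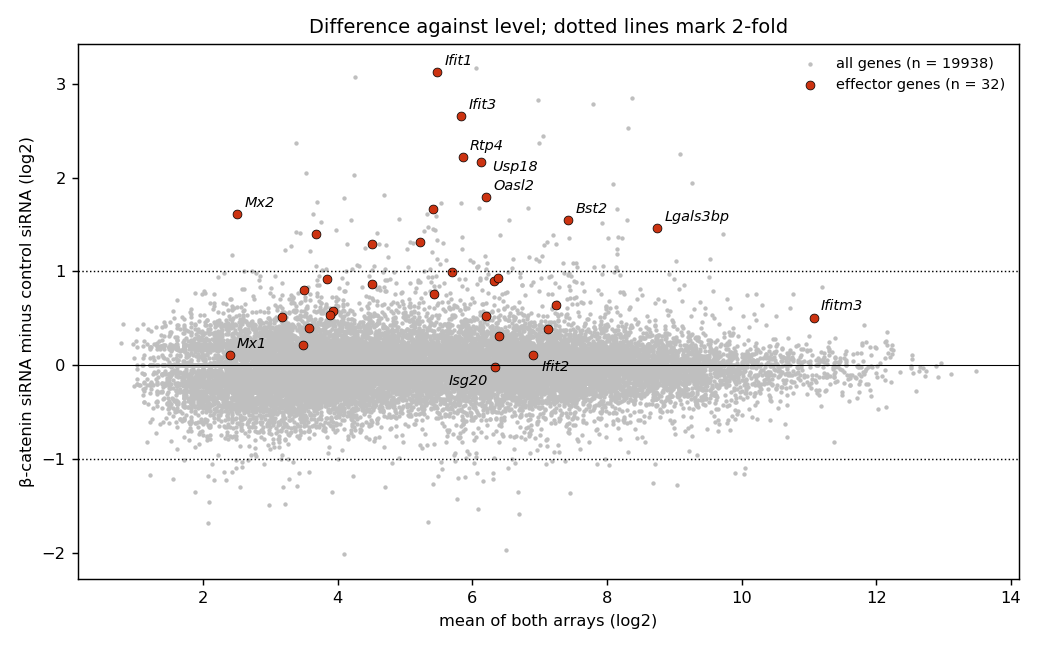
Difference of each gene (β-catenin siRNA minus control siRNA, log2, vertical axis) against the mean of both arrays (log2, horizontal axis), 1 array a group, for all 19938 genes (grey) and the 32 effector genes (red). Dotted lines mark 2-fold. Members at or above the upper line number 12 and range in level from Mx2 at the dim end to Lgals3bp at the bright end, while Isg20, Ifit2 and Mx1 sit near 0.

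The ISRE core lay before a larger share of the effector genes than of all genes. Of the 28 genes with a promoter, 9 (32.1%) held GAAANNGAAA wholly within the 250 bases before a start site, against 3.46% of all 27025 genes with a promoter. One of the 9 is Isg15, whose level was not compared. The 8 compared genes with a match had a median difference of 1.47, and the 18 without had 0.78. Both medians include dim values. Of the genes with a match, Ddx60, Rsad2, Oas1a and Oas3 were dim on both arrays, so with the reference as floor their differences were 0.0. Of those without, the same held for Cmpk2, Epsti1 and Sp100. For 6 compared genes no promoter was available, so Rtp4, Usp18, Mx2, Oas2, Ifi27l2a and Mx1 stand in neither group. Among them, Rtp4 (2.22), Usp18 (2.16) and Mx2 (1.61) were at least 2-fold higher. At least 2-fold higher were 5 of the 8, as in the promoters of Ifit1, Ifit3, Trim30a, Bst2 and Ddx60 printed above, and 4 of the 18. Rsad2, Oas1a and Oas3 held a match too, with differences of 0.87, 0.58 and 0.52. The 4 genes that reached 2-fold without a match were Oasl2 (1.79), Lgals3bp (1.46), Samd9l (1.32) and Xaf1 (1.29). A match is a description of the letters and no evidence of binding, and elements with other spellings were not searched.

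The same letters were counted in genes outside the list. Of 523 other genes with a promoter, a value and the ISRE core, 29 (5.54%) were at least 1.5-fold higher, against 281 of 15065 (1.87%) without it. Those 29 include interferon-induced genes outside the list, such as Ifit3b and Slfn8, so they are not a set free of the same kind of gene. The letters CTTTGAT, a core of the site bound by TCF/LEF factors, the DNA-binding partners of β-catenin, stood before 1 member (Ddx60) of the 28 and before 3.72% of all genes. Other genes with it were 1.5-fold higher in 1.93% of cases, against 1.99% without. Genes that were lower were not counted by these letters, and other spellings of the site were not searched. Whether β-catenin acts directly at any of these genes was not tested. These shares were not matched for base composition and no test was made of them.

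**Figure D3:**
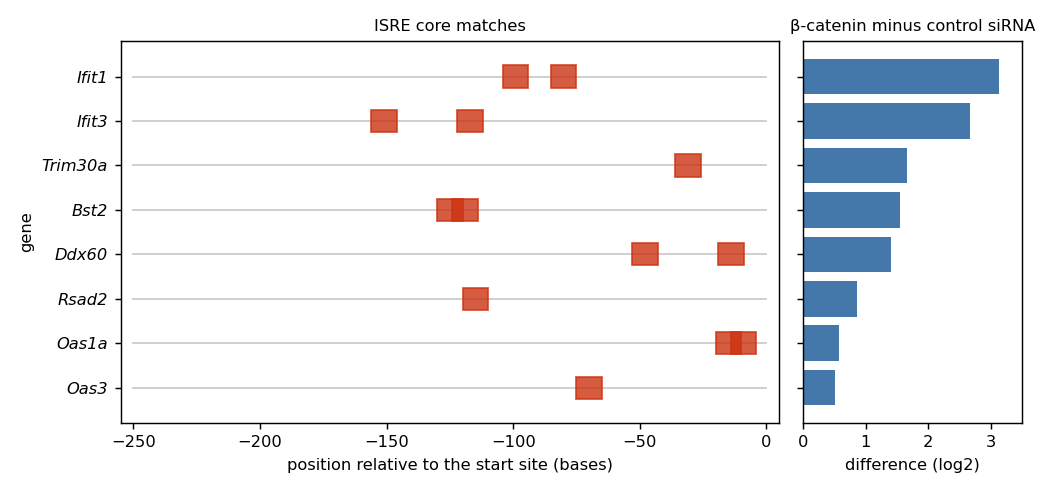
Left, positions of ISRE core matches (boxes) in the 250 bases before the start site (bases, horizontal axis) for the 8 compared genes that hold one. Right, the difference of each gene on a log2 scale (bars start at 0, 1 array a group). Ifit1 and Ifit3, each with 2 separate matches, have the longest bars, and Oas1a, with 2 overlapping matches, and Oas3, with 1, the shortest. The bars do not follow the number of matches. Ddx60, with 2 separate matches (1.40), lies below Trim30a, with 1 (1.66), and Bst2, with 2 overlapping matches (1.54).

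The other steps of the interferon pathway differed unequally, as lists drawn up beside the members show. None of 15 interferon ligand genes was 1.5-fold higher or lower, against 2.23% and 2.35% of all genes, and their median difference was -0.21. The lists of ligands, receptors and feedback inhibitors are short. At the shares of all genes few or none of their genes would reach 1.5-fold, so such counts do not set these lists apart. Ifnb1, the interferon-β gene, read 2.80 and 3.11, and 13 of the 15 were dim on both arrays. The largest ligand differences were those of Ifna14 (-0.46), Ifna11 (-0.39) and Ifne (-0.37), all dim. Secreted interferon was not measured.

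All 6 receptor genes were slightly higher, by 0.11 to 0.37, and none reached 1.5-fold, against 2.23% of all genes. Ifnar1 and Ifnar2, which encode the chains of the type I receptor, read 8.31 and 8.44, and 7.96 and 8.28. Ifngr1, a chain of the interferon-γ receptor, differed by 0.37 and Ifnlr1, of the type III receptor, by 0.19. Of 12 JAK, STAT and IRF genes, 5 were lower, 7 higher and 3 at least 1.5-fold higher. Over all genes, 41.6% were higher and 2.23% at least 1.5-fold higher. The median difference of the 12 was 0.07. Jak2, a receptor-bound kinase gene, read 9.52 and 8.97. The 3 genes at least 1.5-fold higher were Irf7, the amplifier of interferon production (5.99 and 7.67), Stat2 (7.03 and 8.08) and Irf9 (6.88 and 7.49). Stat2 and Irf9 encode subunits of the ISRE-binding complex.

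Sensors of foreign nucleic acid were higher in 8 of 13 genes, 6 of them by at least 1.5-fold, against 41.6% and 2.23% of all genes. Of the 13, 7 were dim on both arrays. With the reference as floor, 4 sensors were at least 1.5-fold higher, against 1.18% of all genes. The sensors with the largest differences encode the RIG-I-like receptors of duplex RNA. Dhx58 (LGP2) read 4.69 and 6.15, Ddx58 (RIG-I) read 7.56 and 8.74, and Ifih1 (MDA5) read 5.55 and 6.59. These sensors are themselves interferon-stimulated genes. None of 8 listed feedback inhibitors was 1.5-fold higher or lower, against 2.23% and 2.35% of all genes. Socs1, an inhibitor of JAK kinases, read 5.88 and 5.66. Usp18, which also dampens signalling, was counted with the members and not here, and was 4.47-fold higher. Differences in the list of feedback inhibitors were largest for Pias1 (0.42), Ptpn2 (0.31) and Ptpn11 (-0.26). Of 27 further interferon-induced effectors outside the members, 22 were higher and 10 at least 1.5-fold higher, against 41.6% and 2.23% of all genes. Phf11d (1.82), Ifit3b (1.73) and Parp14 (1.61) differed most. With the reference as floor, 5 of those 27 were at least 1.5-fold higher, against 1.18% of all genes.

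**Figure D4:**
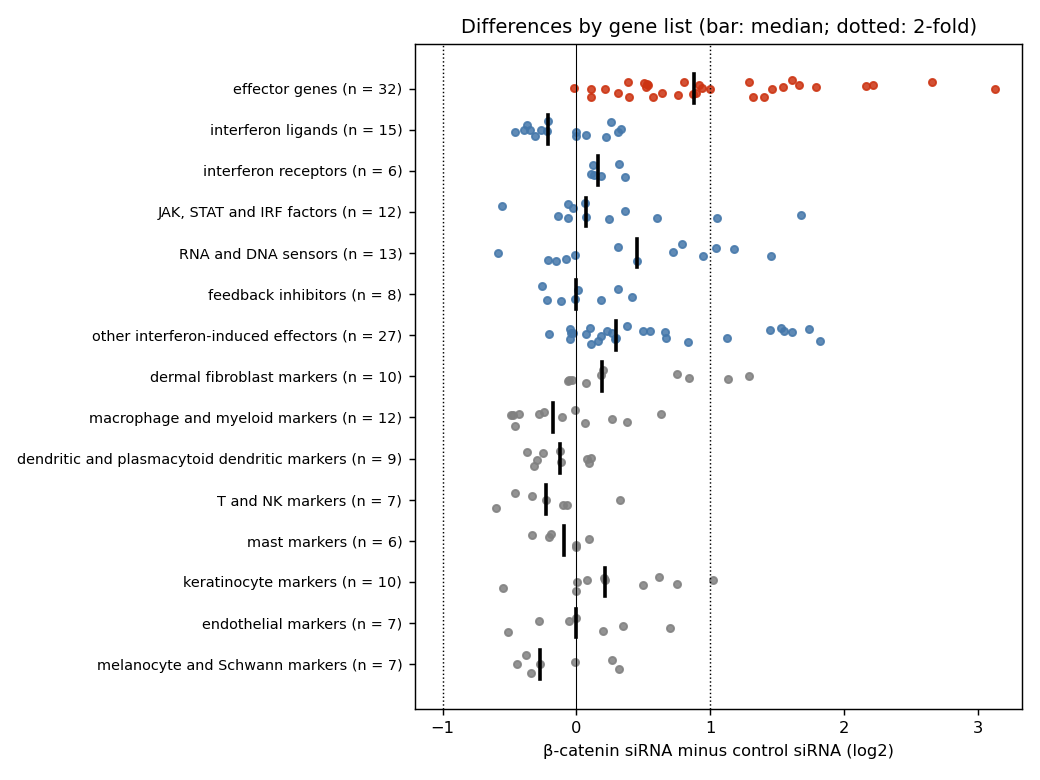
Differences (β-catenin siRNA minus control siRNA, log2, horizontal axis) of single genes in the effector list (red), the other interferon pathway lists (blue) and cell type marker lists (grey), with 1 array a group. Black bars are medians, dotted lines 2-fold. The effector median is 0.88, and the medians of the ligands and the receptors are -0.21 and 0.16.

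Markers of immune cells that could answer to or make interferon were mostly dim. All 12 macrophage and myeloid markers were dim on the control array and 11 on both, and their summed linear signal was 171.8 and 172.4. The exception, Lyz2 (lysozyme), read 4.75 and 5.38. Among 9 dendritic and plasmacytoid dendritic markers 8 were dim on both arrays, with Siglech at 3.73 and 3.41. The bright exception was Tcf4, which other cells also express, at 9.19 and 8.94, and the list's sum was 675.7 and 576.7. All 7 T and NK markers and all 6 mast cell markers were dim on both arrays, the brightest being Cd8a (4.56 and 4.46) and Kit (3.87 and 3.97).

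Keratinocyte markers differed in the same direction as the effector genes. Of 10, 8 were higher and 3 at least 1.5-fold higher, against 41.6% and 2.23% of all genes. Their summed linear signal was 755.9 in the control and 1146.3 after β-catenin siRNA. Krt14 and Krt5, keratins of the basal epidermis, read 8.03 and 8.65, and 7.64 and 8.65. They made up most of the difference in the sum, which was 295.5 and 341.9 over the other 8 markers. Krt15, another basal keratin, read 4.30 and 3.75, and Trp63 and Krt10 differed by 0.0050 and 0.0. Of the fibroblast markers, 4 of 10 were at least 1.5-fold higher, against 2.23% of all genes, and the sum was 27551.3 and 30091.5. Endothelial markers summed to 132.4 and 127.2, with 3 of 7 higher, 3 lower and a median difference of 0.0. The brightest, Kdr, read 5.34 and 4.82, and the one that differed most, Tek, read 3.73 and 4.43. Melanocyte and Schwann cell markers summed to 195.9 and 176.8, led by Tyrp1 (5.78 and 5.41). The part of these cells in the effector differences was not tested, and in a mixed culture more cells of a type and more RNA per cell cannot be told apart.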

How the data were processed

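Gene expression was measured on Affymetrix whole-transcript arrays from 300 ng of total RNA, 1 array per group. The authors deposited 1 log2 value per probe set, made with RMA, per the submitters' processing notes, and its version is not given in the sources used here. The log2 scale was judged from the range, 0.485 to 13.5. The sorted values of both arrays differed by at most 0.123. RMA equalises distributions and leaves background in dim values, so differences are relative to other genes and dim folds can be understated.

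Of 28944 probe sets, the platform annotation gave 1 symbol for 21789, several for 1621 and none for 5534. Symbols of 21698 were updated by gene identifier in a RefSeq table of GRCm38.p6. Per gene the probe set with the highest mean stood, and each member had 1. The array values carry no genome build.

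Differences were subtracted without filter or test (pandas 2.3.3, Python 3.11.15). Alternatives were other probe set choices, centring by the median or by lowess (span 0.3, statsmodels 0.14.6), floors at the median and 75th percentile of gene means, and the annotation's own symbols. The counting and the motif search were tested on simulated data. All members were named, and in other lists the 3 largest absolute differences or the brightest marker, plus genes fixed by name. Members and lists were chosen with earlier results of these data known. Other genes were named after their values were seen.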

Additional observations from a re-analysis of the deposited data

How the results depend on the processing

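The probe set choices and the annotation's own symbols left the member counts as they were, since each member had 1 probe set. Median centring and lowess centring each gave 13 members at least 2-fold and 21 at least 1.5-fold higher, against 0.662% and 2.48% of all genes with median centring and 0.677% and 2.53% with lowess. Median centring turned the difference of Isg20 to 0.0040. Floors mattered. With values under the median of gene means raised to it, 20 members were higher by any amount, against 23.4% of all genes, 11 were tied and the median difference was 0.45. At the 75th percentile, 7.12, only 2 members were at least 2-fold higher, Lgals3bp and Bst2, which were also the only 2 at least 1.5-fold higher, 7 were higher by any amount, and the median was 0.0. A floor can only shrink differences, so these values bound what bright signal alone shows. No replicate could be left out. No paired analysis was possible because each group has 1 array. Detection calls were not used here.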

Other observations

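Of 50 protein-coding genes next to a member on the chromosome that were not members themselves, 7 (14.0%) were at least 1.5-fold higher, against 2.23% of all genes. Palld, next to Ddx60, was the 1 that was 1.5-fold lower (-0.62), and the median difference of the 50 was -0.01. The 7 were Trim30d (2.04), next to Trim30a, Parp14 (1.61) and Parp9 (1.13), on either side of Dtx3l, Serping1 (1.11), next to Ube2l6, Agrn (0.92), next to Isg15, Kcnn3 (0.69), next to Adar, and Rnf144a (0.67), next to Rsad2. Trim30d, Parp14 and Parp9 belong to families known as interferon-induced, and Serping1 encodes the inhibitor of complement C1. Trim30d can share probe signal with Trim30a.

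Of 109 genes outside the list that were at least 2-fold higher, 78 had a promoter, and 18 of these (23.1%) held the ISRE core, against 3.46% of all genes with a promoter. Among the 18 were the chemokine gene Cxcl10 (2.82), Ifi207 (1.78), Gbp3 (1.73), Slfn8 (1.53), Gbp7 (1.47), Irgm1 (1.09) and Stat2 (1.05). The 18 also held Selenop, a plasma selenium carrier (1.43), Gfra1, a GDNF co-receptor (1.36), Vsnl1, a neuronal calcium sensor (1.31), Mmp13, a collagenase (1.15), and Ebf1, a transcription factor of B cells and fat cells (1.04). These genes were singled out after their values were seen.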
